A study of Mus musculus with 18 samples.

Results

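Mouse retinal cells carrying a short hairpin RNA (shRNA) plasmid against Nmnat1 were compared directly with cells carrying one against Nmnat2. The comparison uses 6 of the 18 samples of the series, 3 libraries of each knockdown, chosen by the knockdown named in the labels and not by any measured value. A further 3 libraries from cells with a scramble plasmid stand in the same table and give the level without either knockdown. All libraries began from ICR mice, which are outbred. The retinas were electroporated at postnatal day 0.5 with the plasmid together with a second plasmid for EGFP. The explants were then cultured for 3 days, and EGFP-positive cells were sorted, so that the libraries hold electroporated cells of all types that took up plasmid. The labels do not name the promoter of the plasmids or the number of retinas or animals behind a library. The title of 1 sample of the Nmnat2 group names Nmnat3, whereas its other labels name Nmnat2, and the sample was kept in that group on those labels.

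Nicotinamide adenine dinucleotide (NAD) is made in the cell by joining nicotinamide mononucleotide to ATP, and the NMNAT enzymes carry out this last step. NMNAT1 works in the nucleus, NMNAT2 at the Golgi and in axons, and NMNAT3 is described in mitochondria. Mutations of NMNAT1 cause a form of Leber congenital amaurosis in which photoreceptors die early, and NMNAT2 is a short-lived axon survival factor whose loss activates the NAD-degrading enzyme SARM1. In the newborn mouse retina the last progenitors leave the cell cycle and become mainly rods, bipolar cells, Müller glia and late amacrine cells, whereas cones, horizontal cells and ganglion cells are born earlier.

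Values are in ppm, the share of a gene in the sum of its deposited column times 1000000. The columns summed to between 14.4 and 29.6 times 1000000, and 24523 to 28953 genes were above 0 in a library. Steps of single reads among low values put the relative depth at 0.793 to 1.37 of the median library. For a transcript of 1 kb a level of 1 ppm stood for about 12.9 to 20.8 reads. In short transcripts, levels near 1 ppm thus rest on few reads. One library of the Nmnat2 group, N2_2, stood apart. On the first principal component, which held 24.4% of the variance, it lay at 129, whereas the other 8 libraries lay between -31.2 and -5.83. Mitochondrially encoded mRNAs made up 6.51% of N2_2 against 2.29% to 4.67% elsewhere, and its levels correlated with those of N2_1 and N2_3 across genes at r of 0.898 and 0.896. N2_1 and N2_3 correlated at 0.982, closer than any other pair. Their estimated reads differed by a chi-square of 4.34 per degree of freedom, against 11.7 to 14.4 for pairs of Nmnat1 libraries. This is more than sampling noise but cannot tell separate samples from repeats of 1 sample. N2_1 and N2_3 were kept as separate samples on their labels. Values written as one set against another give the 3 Nmnat1 libraries first and then N2_1, N2_2 and N2_3 in this order. Results are given with N2_2 and without it, and the second form sets 3 libraries against a pair that is more alike than any other. Separate cultures or animals are not named for the libraries of a group. The p-values therefore measure only the spread between these libraries, which may be technical.

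The targeted genes were looked at first. Nmnat1 (chr4:149467572-149485202, minus strand, GRCm38) stood at 7.37, 8.54 and 7.49 ppm in the Nmnat1 knockdown libraries, at 21.1, 14.2 and 21.3 ppm in N2_1, N2_2 and N2_3, and at 19.1, 20.9 and 17 ppm in scramble. The groups did not overlap, and the mean was 2.42-fold higher in the Nmnat2 knockdown (log2 difference -1.16 ± 0.25 (SE), limma adjusted p = 0.0476; -1.34 without N2_2, limma adjusted p = 0.0017). The call was lost when any single library other than N2_2 was left out, with adjusted p from 0.0747 to 0.189, and the exact two-sided permutation p was 0.1, the smallest that 3 against 3 allows. Nmnat2 (chr1:152954993-153119261, plus strand) was low throughout, at 2.71, 1.49 and 1.86 ppm in the Nmnat1 knockdown, 1.27, 1.01 and 0.503 ppm in the Nmnat2 knockdown and 6.22, 0.624 and 2.03 ppm in scramble. Each library of the Nmnat2 knockdown lay below each of the Nmnat1 knockdown, but the difference missed the threshold (log2 difference 0.65 ± 0.52 (SE), limma adjusted p = 0.572; exact permutation p = 0.1), and the scramble libraries spread across both groups. With scramble libraries that ran from 0.624 to 6.22 ppm, a fall of Nmnat2 in its own knockdown was not detectable from its mRNA. Nmnat3 stood at 1.01, 2.19 and 5.28 ppm against 0.688, 1.2 and 0.362 ppm (scramble 1.43, 0 and 1.96) and overlapped (log2 difference 1.0 ± 0.54 (SE), limma adjusted p = 0.385; exact permutation p = 0.2).

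**Figure D1:**
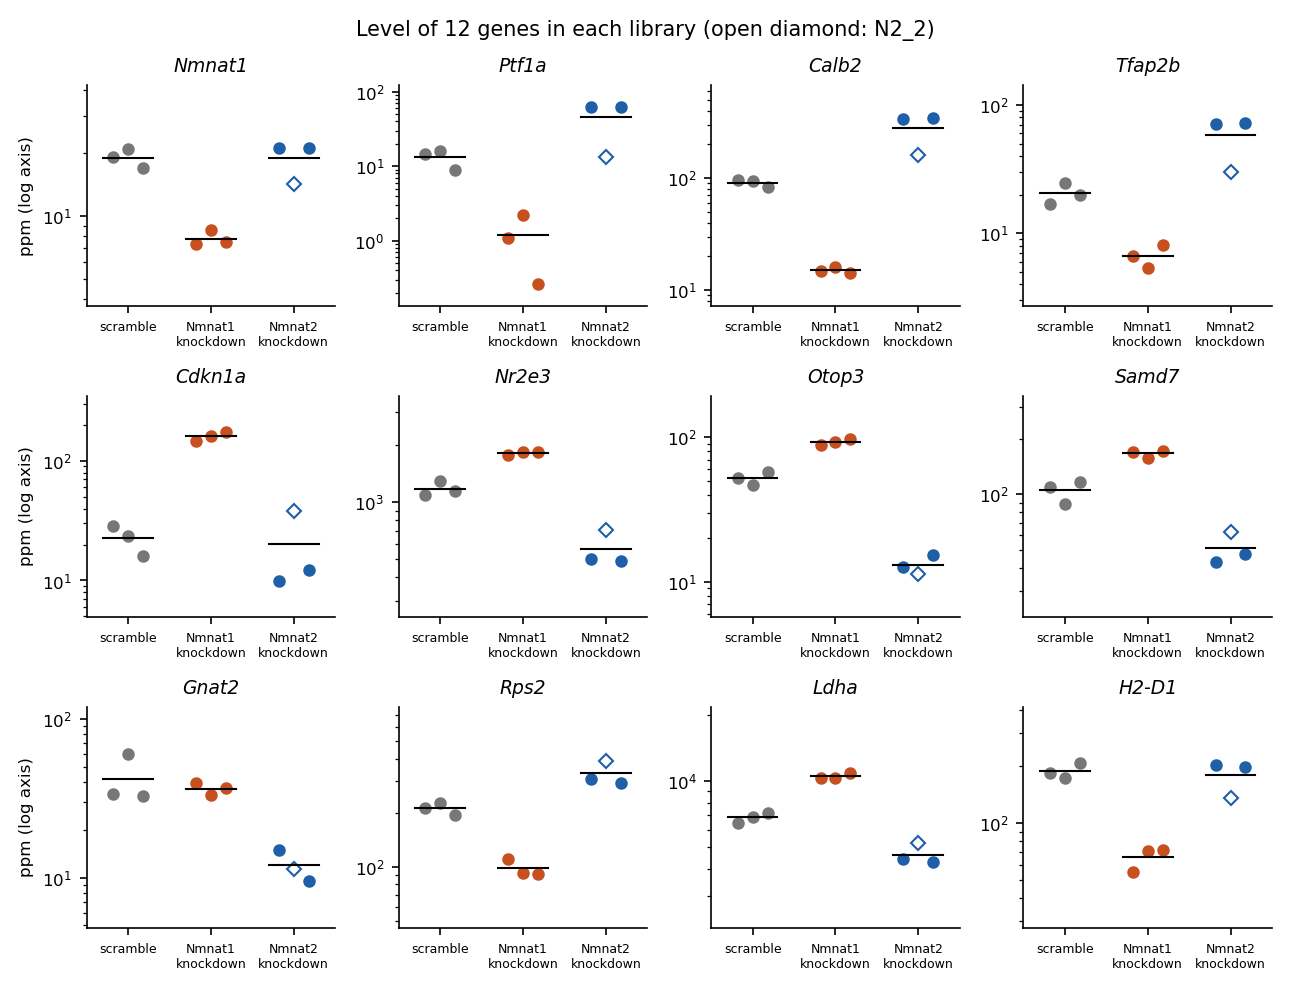
Level of 12 genes in each of the 9 libraries in ppm on a log axis, with a line at each group mean; each panel has its own scale. Nmnat1 lies at 7.37 to 8.54 ppm in its own knockdown and at 14.2 to 21.3 ppm in the other, Ptf1a, Calb2 and Tfap2b are lower and Cdkn1a, Nr2e3, Otop3 and Ldha higher in the Nmnat1 knockdown, and the open diamond (N2_2) often lies between the other Nmnat2 libraries and the Nmnat1 group.

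Of 22233 genes tested, 299 (1.34%) were higher and 159 (0.715%) lower in the Nmnat1 than in the Nmnat2 knockdown at a limma adjusted p under 0.05. Without N2_2 the numbers were 1396 (6.28%) higher and 1508 (6.78%) lower, and all 458 genes called with N2_2 were called in the same direction without it. In 5638 genes (25.4%) the 3 libraries of one knockdown did not overlap the 3 of the other. The median difference over all genes was 0.25 on the log2 scale with N2_2 and 0.18 without it, so list medians are also given relative to these values. The split between the directions depended on the scaling: with median-of-ratios scaling 201 genes were higher and 387 lower, and with quantile normalization 348 and 334. Leaving out 1 library other than N2_2 gave 48 to 213 higher and 32 to 119 lower genes, and averaging N2_1 and N2_3 into 1 sample gave 99 and 55, or 480 and 524 without N2_2.

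The scramble mean lay between the means of the knockdowns for 262 of the 299 higher genes (87.6%) and for 145 of the 159 lower genes (91.2%), against 36.2% of all genes tested. Among genes called without N2_2 the shares were smaller, 873 of 1396 higher genes (62.5%) and 940 of 1508 lower genes (62.3%). The Nmnat2 mean behind all these shares included N2_2. Most of the called genes thus had their knockdown means on opposite sides of the scramble mean. The 36.2% is not a fair background, because called genes were selected for a gap between the knockdowns. A scramble mean level with either knockdown can also count as between. These shares therefore cannot tell whether the knockdowns moved a gene in opposite directions from scramble, which was not tested. Pseudogenes made up 11.4% of the higher and 13.8% of the lower calls, against 24.8% of all genes tested. Median exon length was 3377 bases among the higher and 2091 bases among the lower calls, against 3017 bases over all, whereas without N2_2 it was 3285 and 4507 bases. Whether length or read position took part in the calls was not tested.

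**Figure D2:**
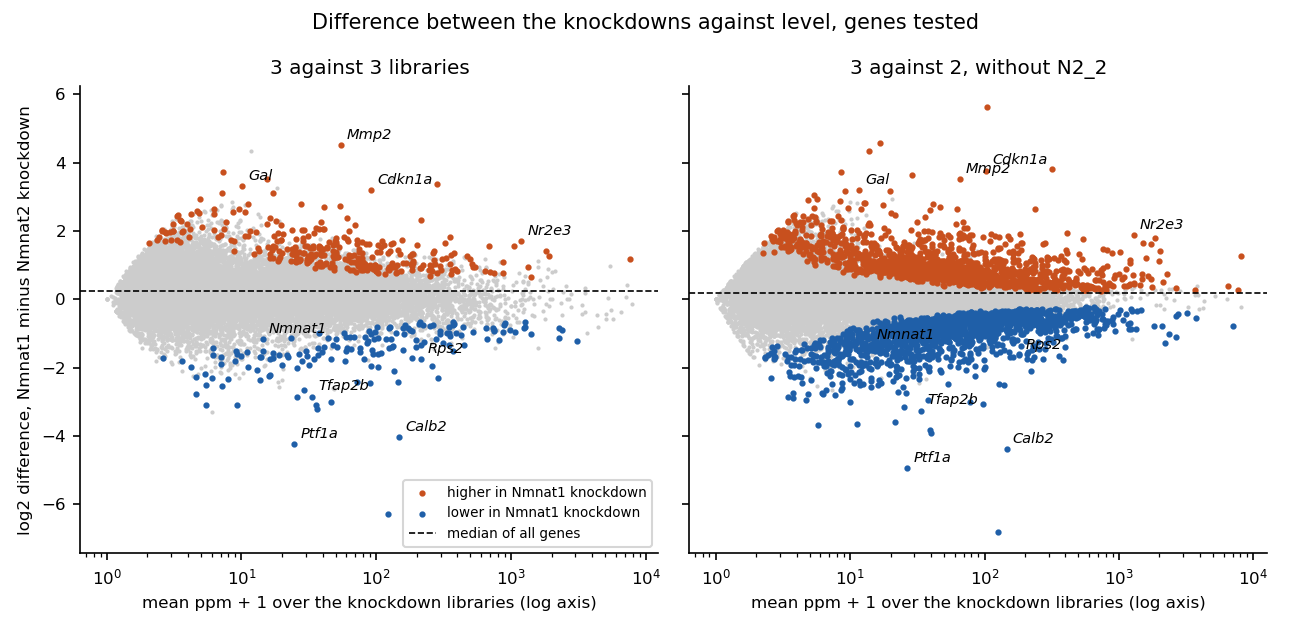
Log2 difference (Nmnat1 minus Nmnat2 knockdown) against mean ppm + 1 on a log axis for 22233 genes, with all 6 knockdown libraries (left) and without N2_2 (right); colours mark genes at adjusted p under 0.05 and the dashed line the median of all genes. The left panel holds 299 higher and 159 lower calls and the right 1396 and 1508; the lowest unlabelled point is the processed pseudogene RP23-186B18.4.

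All 35 rod photoreceptor genes tested had a positive log2 difference, and in 22 of them (62.9%) the knockdowns did not overlap, against 25.4% of all genes. Of 38 listed rod genes 35 passed the filter on low values, and Esrrb, Pde6a and Gucy2f did not. With N2_2, 7 of the 35 were higher and 0 lower (Nr2e3, Samd7, Pde6b, Sag, Prom1, Prph2 and Rdh12), and without it 27 were higher and 0 lower. The median difference of the 35 was 1.01, which is 0.76 above the median of all genes, and 1.23 without N2_2. In bulk libraries more rods, or more rod mRNA per cell, cannot be told apart.

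The promoter stretches of 4 of these photoreceptor and top-ranking genes, and of 1 gene that went the other way, are shown because they hold the letters TAATCC, the core recognised by the photoreceptor homeodomain factors CRX and OTX2. Each stretch is the 150 bases before the RefSeq start on GRCm38.p6, written 5′ to 3′ on the strand of the gene, and the capitals mark the motif, which reads GGATTA here because it lies on the opposite strand in all of them. Samd7 encodes a rod repressor (chr3:30746143-30746292, plus strand), Sag is the rod arrestin (chr1:87803530-87803679, plus strand), Gnat2 the cone transducin alpha subunit (chr3:108092916-108093065, plus strand), Otop3 a proton channel of the otopetrin family (chr11:115334581-115334730, plus strand) and Prdm13 a factor of amacrine fate (chr4:21685964-21686113, minus strand).
Samd7: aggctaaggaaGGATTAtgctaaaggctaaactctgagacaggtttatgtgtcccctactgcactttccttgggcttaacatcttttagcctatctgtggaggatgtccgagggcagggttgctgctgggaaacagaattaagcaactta
Sag: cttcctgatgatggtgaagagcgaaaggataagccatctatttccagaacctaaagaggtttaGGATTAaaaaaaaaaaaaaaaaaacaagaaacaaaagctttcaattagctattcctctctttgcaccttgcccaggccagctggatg
Gnat2: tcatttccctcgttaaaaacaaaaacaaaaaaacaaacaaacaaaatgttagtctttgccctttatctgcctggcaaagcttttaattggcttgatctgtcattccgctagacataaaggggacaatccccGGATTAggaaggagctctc
Otop3: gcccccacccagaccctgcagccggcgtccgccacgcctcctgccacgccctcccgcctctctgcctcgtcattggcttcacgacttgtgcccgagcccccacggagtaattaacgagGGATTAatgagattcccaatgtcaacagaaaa
Prdm13: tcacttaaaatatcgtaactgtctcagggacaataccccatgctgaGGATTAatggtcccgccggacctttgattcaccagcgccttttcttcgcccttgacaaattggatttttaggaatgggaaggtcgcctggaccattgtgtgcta
The first base of the motif lies 139 bases before the start in Samd7, 87 in Sag, 19 in Gnat2, 32 in Otop3 and 104 in Prdm13. Searched on both strands in windows from 250 bases before to 50 bases after the start, TAATCC was found in 6.18% of 15084 windows of tested genes, in 8.81% of 261 windows of the genes called higher and in 4.92% of 122 windows of those called lower. Among 31 windows of 27 rod genes 32.3% held it, among 22 windows of 14 cone genes 18.2%, among 66 windows of 56 ribosomal protein genes 4.54%, and among 37 windows of 31 amacrine and horizontal genes 8.11%. The genes called higher as a whole thus held the motif at a share near that of all tested genes, and the listed rod genes at a larger one, which is a description of promoters and not of these libraries. A match is a description of these letters and not of binding, and the windows of 1 gene can overlap.

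Nr2e3 (chr9:59942771-59960659, minus strand), a nuclear receptor that represses cone genes in rods, stood at 1781, 1836 and 1835 ppm in the Nmnat1 knockdown and 498, 708 and 489 ppm in the Nmnat2 knockdown, with 1097, 1300.1 and 1143 ppm in scramble. The 3 groups did not overlap and scramble lay in the middle (log2 difference 1.71 ± 0.17 (SE), limma adjusted p = 0.0015; 1.88 without N2_2, limma adjusted p = 1.02e-06). Samd7 had 171, 158 and 172 ppm against 42.9, 62.1 and 47.6 ppm, and again scramble lay between at 109, 88.3 and 117 ppm (log2 difference 1.71 ± 0.19 (SE), limma adjusted p = 0.00261). Pde6b, a catalytic subunit of the rod phosphodiesterase, had 120.4, 101 and 104 ppm against 44.2, 29.9 and 41.6 ppm, with scramble at 114, 95 and 123 ppm beside the Nmnat1 group (log2 difference 1.48 ± 0.20 (SE), limma adjusted p = 0.00645). Here the Nmnat1 libraries overlapped scramble and only the Nmnat2 libraries lay apart. Sag showed the same arrangement, with 2681, 2545 and 2569.7 ppm in the Nmnat1 knockdown, 2676, 2785 and 2682 ppm in scramble, and 738, 1699 and 761 ppm in N2_1, N2_2 and N2_3 (log2 difference 1.4 ± 0.27 (SE), limma adjusted p = 0.0286). N2_2 stood between its group and the others.

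Prom1, a protein of outer segment discs, had 269, 236 and 267 ppm against 75, 158 and 88.3 ppm (scramble 204, 213 and 202; log2 difference 1.33 ± 0.25 (SE), limma adjusted p = 0.0243). Nrl, the leucine zipper factor that sets rod fate, had 362, 394 and 358 ppm in the Nmnat1 knockdown, 263, 269.9 and 225 ppm in scramble and 119.8, 313 and 119 ppm in the Nmnat2 knockdown. N2_2 stood above scramble and close to the Nmnat1 group, and the difference passed only without it (log2 difference 1.17 ± 0.32 (SE), limma adjusted p = 0.105; 1.63 without N2_2, limma adjusted p = 6.40e-06). Rcvrn, the calcium sensor recoverin, was at 35.7, 154 and 39.6 ppm (scramble 168, 156 and 162) in the Nmnat2 libraries against 146, 127 and 134 ppm, so that N2_2 lay above the Nmnat1 group (log2 difference 1.15 ± 0.44 (SE), limma adjusted p = 0.23; 1.82 without N2_2, limma adjusted p = 4.90e-06). The summed level of the rod list was 12867, 12662 and 12548 ppm in the Nmnat1 knockdown, 11811, 12192 and 11836 ppm in scramble and 5606, 9921 and 5574 ppm in N2_1, N2_2 and N2_3. The rod count was 3 with median-of-ratios scaling, 3 or 4 when any library other than N2_2 was left out, and, with N2_1 and N2_3 averaged, 3 with N2_2 and 21 without it.

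Among 18 listed cone genes, all tested, 3 were higher and 0 lower with N2_2, and 7 and 0 without it. The list's median difference was 0.82, or 0.57 above that of all genes. Gnat2 had 39.4, 33 and 36.6 ppm in the Nmnat1 knockdown against 14.9, 11.4 and 9.59 ppm, with scramble at 33.6, 59.8 and 32.7 ppm (log2 difference 1.54 ± 0.28 (SE), limma adjusted p = 0.0226). Gnb3, the beta subunit of the cone transducin, had 927, 919 and 951 ppm against 507, 663 and 485 ppm (scramble 788, 873 and 847; log2 difference 0.77 ± 0.15 (SE), limma adjusted p = 0.0299). Rxrg, a nuclear receptor of cones, had 22.2, 33.6 and 46.2 ppm against 8.99, 15.5 and 10 ppm (scramble 14.6, 18.9 and 14.8; log2 difference 1.46 ± 0.32 (SE), limma adjusted p = 0.045). For these 3 genes N2_2 lay on the same side of the Nmnat1 group as N2_1 and N2_3. Opn1sw, the short-wave cone opsin, had 103, 97.5 and 100.3 ppm against 24, 69.3 and 31.9 ppm (scramble 132, 131 and 154) and missed the threshold with N2_2 (log2 difference 1.39 ± 0.32 (SE), limma adjusted p = 0.0568; 1.82 without N2_2, limma adjusted p = 2.17e-05). Gngt2, the cone transducin gamma subunit, was the reverse in N2_2: 4029.7 ppm there, 799 and 752 ppm in N2_1 and N2_3, and 2440.2, 2378 and 2282 ppm in the Nmnat1 knockdown (log2 difference 0.82 ± 0.51 (SE), limma adjusted p = 0.457; 1.61 without N2_2, limma adjusted p = 5.83e-06). The cone count was 0 or 1 when any library other than N2_2 was left out and 1 with median-of-ratios scaling.

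Of 16 factors that steer photoreceptor fate 14 were tested, and 2 were higher (Nr2e3 and Rxrg) and 0 lower, or 6 higher and 2 lower without N2_2. Nr2e3 is also counted in the rod list and Rxrg in the cone list. The median of the fate list was 0.43 with N2_2 and 0.36 without it, or 0.19 and 0.17 relative to all genes. Otx2, the factor upstream of Crx, had 2041, 1918 and 1851 ppm in the Nmnat1 knockdown against 1503, 974 and 1493 ppm (scramble 1892, 1809 and 1737), with no overlap, and passed only without N2_2 (log2 difference 0.58 ± 0.18 (SE), limma adjusted p = 0.139; 0.37 without N2_2, limma adjusted p = 0.00419). Rorb, a nuclear receptor needed for rods, stood at 259, 254 and 236 ppm against 366, 142 and 373 ppm (scramble 241, 274 and 239). There N2_1 and N2_3 were above and N2_2 below the Nmnat1 group (log2 difference -0.11 ± 0.32 (SE), limma adjusted p = 0.894; -0.57 without N2_2, limma adjusted p = 0.00195).

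Most amacrine and horizontal cell genes that passed were lower in the Nmnat1 knockdown. Of 39 listed genes 35 passed the filter and Th, Lhx1, Onecut3 and Slc18a3 did not. With N2_2, 9 of the 35 were lower in the Nmnat1 knockdown (Ptf1a, Calb2, Tfap2b, Prdm13, Nhlh2, Pax6, Elavl3, Gad2 and Sox11) and 1 was higher (Snap25), and without N2_2 20 were lower and 1 higher. The median difference was -1.23, which is -1.48 relative to all genes, and -1.54 without N2_2. The list was called lower in 16 members with median-of-ratios scaling, and in 4 or 5 when an Nmnat1 library, N2_1 or N2_3 was left out, with 1 higher each time.

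Ptf1a (chr2:19445663-19447501, plus strand), the bHLH factor that commits precursors to amacrine and horizontal fates, had 1.1, 2.2 and 0.261 ppm in the Nmnat1 knockdown, 62, 13.5 and 62.1 ppm in N2_1, N2_2 and N2_3, and 14.6, 15.9 and 8.9 ppm in scramble. The Nmnat1 libraries lay below every other library, N2_1 and N2_3 above every other, and N2_2 at the level of scramble (log2 difference -4.24 ± 0.58 (SE), limma adjusted p = 0.00621; -4.95 without N2_2, limma adjusted p = 3.58e-05). The mean was 38.6-fold higher in the Nmnat2 knockdown. Calb2 (chr8:110137502-110168210, minus strand), the calcium buffer calretinin of amacrine and ganglion cells, had 15, 16.2 and 14.3 ppm against 338, 161 and 341 ppm, 18.4-fold, with 96.9, 93.7 and 83.5 ppm in scramble (log2 difference -4.04 ± 0.27 (SE), limma adjusted p = 4.56e-04; -4.4 without N2_2, limma adjusted p = 4.59e-08). Here N2_2 too lay above every scramble library. Tfap2b (chr1:19208914-19238576, plus strand), an AP-2 factor of amacrine and horizontal cells, had 6.61, 5.38 and 8.06 ppm against 71.6, 30 and 71.8 ppm, with 16.9, 24.5 and 19.8 ppm in scramble (log2 difference -2.85 ± 0.35 (SE), limma adjusted p = 0.00429; -3.26 without N2_2, limma adjusted p = 1.29e-05). In all 3 genes the Nmnat1 libraries lay below scramble and N2_1 and N2_3 above it.

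Prdm13, a zinc finger factor that acts downstream of Ptf1a, had 21.3, 19.8 and 31.3 ppm against 196, 57.3 and 211 ppm, and scramble had 81.3, 83.5 and 83.3 ppm (log2 difference -2.45 ± 0.42 (SE), limma adjusted p = 0.0185). Nhlh2, a bHLH factor of postmitotic neurons, had 19.2, 17.8 and 20.9 ppm against 168, 45.9 and 158 ppm (log2 difference -2.42 ± 0.41 (SE), limma adjusted p = 0.0168). Pax6, a homeodomain factor kept on in amacrine cells, had 49.4, 54.4 and 39.6 ppm against 280.4, 119.8 and 263 ppm (log2 difference -2.1 ± 0.30 (SE), limma adjusted p = 0.00726). In these 3 genes N2_2 was above the Nmnat1 group but within or below the range of scramble, which was 73.7, 78.5 and 75 ppm for Nhlh2 and 126, 141 and 119 ppm for Pax6. Tfap2c had 2.18, 3.96 and 3.19 ppm against 48.7, 4.91 and 45.8 ppm (scramble 18.5, 22.8 and 26.5), with N2_2 just above the Nmnat1 group, and Dlx1, a homeodomain factor, 0.37, 0.514 and 0 ppm against 9.23, 1.29 and 8.59 ppm (scramble 1.5, 1.09 and 1.86). Both passed only without N2_2 (Tfap2c log2 difference -2.57 ± 0.68 (SE), limma adjusted p = 0.0972; -3.58 without N2_2, limma adjusted p = 1.61e-05; Dlx1 limma adjusted p = 0.0746 and 9.34e-04 without N2_2). Snap25, the synaptic SNARE protein that photoreceptors also express, was the exception, at 705, 672 and 623 ppm against 266, 298 and 263 ppm (scramble 482, 493 and 464; log2 difference 1.27 ± 0.13 (SE), limma adjusted p = 0.00188). Summed over the list the level was 1361, 1345 and 1309 ppm in the Nmnat1 knockdown, 2396, 1240.1 and 2421 ppm in N2_1, N2_2 and N2_3, and 1517, 1571 and 1522 ppm in scramble, so the sum of N2_2 lay below that of the Nmnat1 group. Snap25 made up much of these sums, and without it they were 656, 673 and 686 ppm in the Nmnat1 knockdown, 2130.1, 942 and 2158 ppm in N2_1, N2_2 and N2_3, and 1036, 1078 and 1058 ppm in scramble, with N2_2 above the Nmnat1 group.

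**Figure D3:**
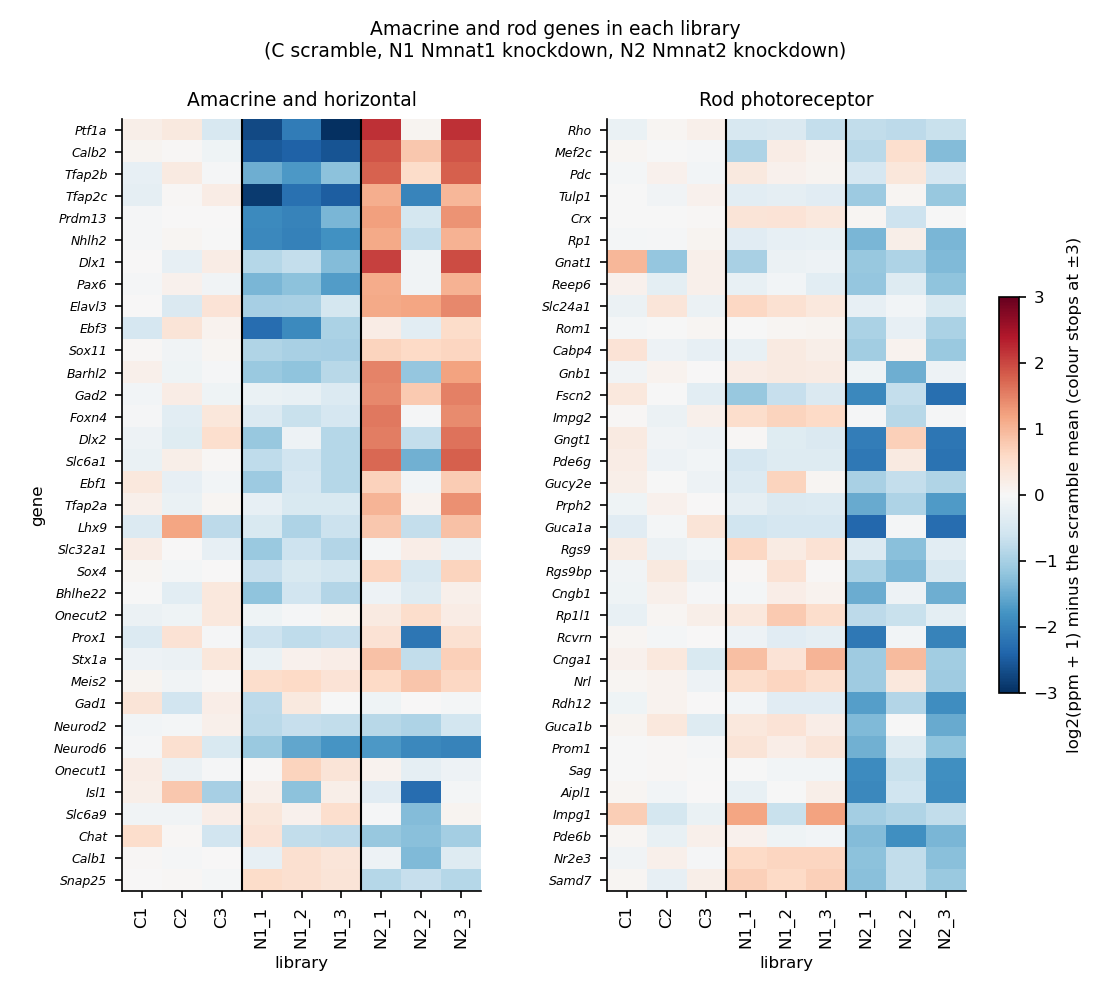
Log2(ppm + 1) of each tested amacrine and horizontal gene (left, 35 genes) and rod gene (right, 35 genes) in the 9 libraries, minus the scramble mean of the gene; red is above and blue below scramble, colours stop at 3, and genes are sorted by the difference between the knockdowns. At the top left the N1 columns are blue and the N2_1 and N2_3 columns red; on the right N2_1 and N2_3 are blue in most rows, and N2_2 differs from both in many.

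Genes of retinal progenitors and of Müller glia, which share many transcripts, separated the knockdowns mainly without N2_2. Of 29 listed progenitor genes 27 were tested, with 0 higher and 2 lower in the Nmnat1 knockdown (Pax6 and Six3), and 1 higher (Rax) and 16 lower without N2_2. Six3, a homeodomain factor of the eye field, had 38.6, 47.2 and 40.9 ppm against 97.5, 72.2 and 106 ppm, with 66.3, 56.7 and 58.9 ppm in scramble (log2 difference -1.09 ± 0.20 (SE), limma adjusted p = 0.0239). Sox9, a factor of progenitors and Müller glia, had 12.1, 11.6 and 14.5 ppm in the Nmnat1 knockdown, 25.2, 25.8 and 23.6 ppm in scramble and 55.1, 17.6 and 53.6 ppm in the Nmnat2 knockdown. N2_2 lay between the Nmnat1 group and scramble (log2 difference -1.49 ± 0.38 (SE), limma adjusted p = 0.087; -2.01 without N2_2, limma adjusted p = 3.55e-05). With N2_1 and N2_3 averaged and N2_2 left out the progenitor count was 0 higher and 11 lower.

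Of 34 Müller glia genes 30 were tested and 0 passed with N2_2 in either direction, whereas without it 1 was higher (Clu) and 20 lower in the Nmnat1 knockdown, or 0 and 11 with N2_1 and N2_3 averaged. The median difference was -0.34 with N2_2 and -0.80 without it (-0.59 and -0.98 relative to all genes). Glul, the glutamine synthetase of Müller cells, had 95.5, 72.5 and 96 ppm in the Nmnat1 knockdown against 136, 159 and 145 ppm, and scramble had 138, 135 and 134 ppm. The Nmnat1 libraries were the low ones and did not overlap (log2 difference -0.74 ± 0.17 (SE), limma adjusted p = 0.0563; -0.68 without N2_2, limma adjusted p = 0.00616). Car2, a carbonic anhydrase, had 257, 222 and 267 ppm against 474, 279 and 481 ppm (scramble 302, 355 and 311; log2 difference -0.69 ± 0.21 (SE), limma adjusted p = 0.147; -0.94 without N2_2, limma adjusted p = 2.34e-04). Dkk3 had 132, 141 and 143 ppm against 360.4, 38.9 and 364 ppm (scramble 164, 197 and 175), where N2_2 was the lowest of all libraries and N2_1 and N2_3 the highest (log2 difference -0.32 ± 0.68 (SE), limma adjusted p = 0.85; -1.38 without N2_2, limma adjusted p = 1.33e-05). The Müller list summed to 3693, 3721 and 3769 ppm in the Nmnat1 knockdown, 5559, 3024 and 5373 ppm in N2_1, N2_2 and N2_3 and 6481, 6973 and 7212 ppm in scramble. Both knockdowns thus summed to less than scramble, but abundant members weigh most in a sum. In N2_1 and N2_3 members went both ways. Car2 and Dkk3 stood above scramble there, and Rlbp1 below it, at 170 and 158 ppm (scramble 246, 250 and 239).

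Neurogenic precursor genes, 21 listed and 21 tested, gave 0 calls with N2_2 and 2 higher (Otx2 and Insm1) and 13 lower ones without it. Insm1, a zinc finger factor of newborn neurons, had 109.5, 129 and 145 ppm in the Nmnat1 knockdown against 55.9, 83 and 66.6 ppm, with 60.6, 63.7 and 76.7 ppm in scramble (log2 difference 0.9 ± 0.20 (SE), limma adjusted p = 0.0555; 1.05 without N2_2, limma adjusted p = 0.00148). Foxn4, which acts before Ptf1a in amacrine and horizontal precursors, had 3.42, 2.71 and 3.15 ppm against 16.8, 4.79 and 14.9 ppm and 4.8, 3.77 and 6.49 ppm in scramble (log2 difference -1.53 ± 0.44 (SE), limma adjusted p = 0.12; -2.04 without N2_2, limma adjusted p = 0.00203). Mfng, a glycosyltransferase that modifies Notch, had 54.3, 47.9 and 51.8 ppm against 118, 57.2 and 119 ppm (scramble 83.7, 82 and 80.6) and passed only without N2_2 (limma adjusted p = 5.31e-05, against 0.147 with it).

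**Figure D4:**
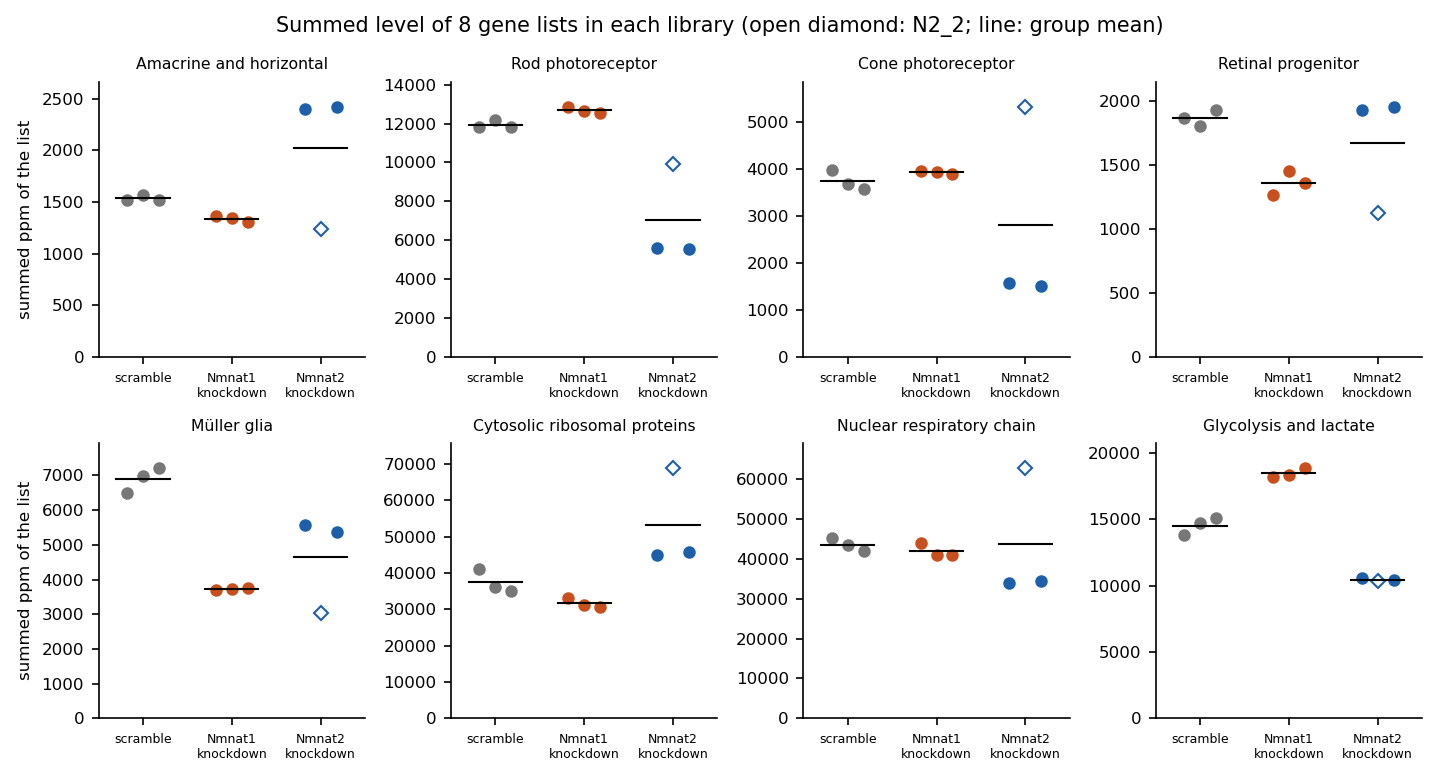
Summed ppm of 8 gene lists in each library, with each axis starting at 0, a line at the group mean and N2_2 as an open diamond. In the amacrine, rod, cone, progenitor, Müller, ribosomal and respiratory panels N2_2 lies far from N2_1 and N2_3. In the glycolysis panel the 3 Nmnat2 libraries lie together at 10562, 10339 and 10400.1 ppm and the Nmnat1 libraries at 18166, 18366 and 18872 ppm. Much of that gap is 1 gene, Ldha, with 4415, 5215 and 4291 ppm of the Nmnat2 sums and 10383, 10399 and 10933 ppm of the Nmnat1 sums.

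Ganglion cell genes and genes of axon growth and injury had no common direction as lists. Of 21 tested ganglion cell genes 0 were higher and 2 lower (Stmn2 and Gap43, which both lists hold), and 0 and 5 without N2_2. Of these 21 the difference was positive in 12 and negative in 9, with a median of 0.15 (-0.10 relative to all genes). The ganglion count was 0 without N1_2 or N1_3 and 1 without C1, C3, N1_1, N2_1 or N2_3. Of 22 tested axon injury genes 1 was higher (Gal) and 4 lower (Stmn2, Basp1, Gap43 and Sox11), and 1 and 7 without N2_2, with 10 positive and 12 negative differences and a median of -0.04 (-0.29 relative to all genes). Stmn2, a tubulin-binding protein of growing axons, had 10.8, 9.41 and 7.04 ppm in the Nmnat1 knockdown, 47.6, 25.9 and 49.4 ppm in the Nmnat2 knockdown and 23.5, 21 and 18.5 ppm in scramble (log2 difference -2.02 ± 0.29 (SE), limma adjusted p = 0.00826). Gap43, a growth cone protein, had 8.29, 5.92 and 10.7 ppm against 33.2, 18.9 and 31.2 ppm (scramble 12.3, 16.9 and 9.58; log2 difference -1.62 ± 0.33 (SE), limma adjusted p = 0.0352). Basp1, a related membrane protein, had 70.4, 89.7 and 83.9 ppm against 246, 171 and 277 ppm (log2 difference -1.47 ± 0.22 (SE), limma adjusted p = 0.00832). For Stmn2 the 3 groups were ordered with scramble in the middle, and for Basp1 the Nmnat1 libraries overlapped scramble at 90.1, 76.1 and 104 ppm. Sox11, a factor of immature neurons, had 3.81, 3.58 and 3.47 ppm against 13.2, 12.5 and 13 ppm (scramble 8.23, 7.35 and 8.33; log2 difference -1.59 ± 0.26 (SE), limma adjusted p = 0.0144), and here the 3 Nmnat2 libraries lay within 1 ppm. The axon list kept 0 to 4 lower genes when a library other than N2_2 was left out, with 0 without N1_3, and Gal stayed higher each time. Amacrine cells also express several of these genes.

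Gal (chr19:3409915-3414544, minus strand), the neuropeptide galanin, was at most 1.03 ppm outside the Nmnat1 knockdown. It had 14.9, 13.7 and 23.2 ppm there, 0.888, 0.473 and 1.03 ppm in the Nmnat2 knockdown and 0.104, 0 and 0.294 ppm in scramble (log2 difference 3.32 ± 0.36 (SE), limma adjusted p = 0.00199; 3.18 without N2_2, limma adjusted p = 4.91e-04). The p53 targets Cdkn1a, Phlda3 and Eda2r were the 3 higher genes among 29 tested p53 targets, with 0 lower, against 1.34% and 0.715% of all genes. Without N2_2 5 were higher and 5 lower, against 6.28% and 6.78%. Plk2 was among those lower ones, at 19.8, 19.5 and 22.6 ppm against 71.2, 9.78 and 65.4 ppm (scramble 44.9, 42 and 33). So was Btg2, at 509, 491 and 504 ppm against 796, 464 and 741 ppm (limma adjusted p = 1.24e-04 and 2.23e-04 without N2_2, 0.543 and 0.37 with it). Scramble had 402, 408 and 395 ppm of Btg2, below every library of both knockdowns. Cdkn1a (chr17:29090976-29100727, plus strand), the cell cycle inhibitor p21, had 147, 163 and 176 ppm in the Nmnat1 knockdown, 9.82, 38 and 12.2 ppm in N2_1, N2_2 and N2_3 and 28.8, 23.6 and 16 ppm in scramble. The Nmnat1 libraries were the high ones, N2_1 and N2_3 the lowest of the 9, and N2_2 above scramble (log2 difference 3.2 ± 0.42 (SE), limma adjusted p = 0.00606; 3.76 without N2_2, limma adjusted p = 6.40e-06). Phlda3, which inhibits AKT signalling, had 36, 29.6 and 24.2 ppm against 2.17, 2.95 and 2.59 ppm and 5.47, 2.25 and 4.16 ppm in scramble (log2 difference 3.11 ± 0.34 (SE), limma adjusted p = 0.00213). Eda2r, a death-domain receptor of the TNF family, had 3.14, 11.4 and 7.46 ppm against 0.311, 1.25 and 0.859 ppm, and scramble overlapped its Nmnat1 values at 2.64, 4.61 and 2.69 ppm (log2 difference 2.1 ± 0.46 (SE), limma adjusted p = 0.0461). The median of the p53 list was 0.31, close to the 0.25 of all genes.

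Among 14 tested G1 cyclins and CDK inhibitors, Cdkn1a was higher and Cdkn1c and Ccnd3 lower. The list had 9 positive and 5 negative differences, with a median of 0.22 (-0.02 relative to all genes). Cdkn1c, the inhibitor p57, had 33.5, 44.2 and 32.1 ppm in the Nmnat1 knockdown against 124, 73.3 and 138 ppm, with 71.2, 82 and 92.1 ppm in scramble (log2 difference -1.55 ± 0.26 (SE), limma adjusted p = 0.015). Ccnd3, cyclin D3 of maturing Müller glia, had 35.5, 37.7 and 39.4 ppm against 83.4, 66.6 and 78.2 ppm, and scramble was level with or above the Nmnat2 group at 80.2, 91.2 and 98.2 ppm (log2 difference -1.0 ± 0.18 (SE), limma adjusted p = 0.0213). Both lower calls were lost when N1_1, N1_2, N1_3, N2_1 or N2_3 was left out, and without N2_2 1 gene was higher and 5 lower.

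Among the other genes with the highest differences, Mmp2 (chr8:92827291-92853420, plus strand), a gelatinase, had 110.4, 102 and 93.1 ppm in the Nmnat1 knockdown, 8.05, 0.106 and 7.92 ppm in N2_1, N2_2 and N2_3 and 23.7, 15.7 and 17.5 ppm in scramble (log2 difference 4.52 ± 0.67 (SE), limma adjusted p = 0.00832; 3.51 without N2_2, limma adjusted p = 3.98e-06). Kcne1l, an accessory subunit of potassium channels, had 465, 539 and 517 ppm against 33.1, 88.6 and 36.8 ppm, with 198, 183 and 206 ppm in scramble (log2 difference 3.38 ± 0.31 (SE), limma adjusted p = 0.0013). Htra1, a secreted serine protease, had 326, 394 and 348 ppm against 56.4, 106 and 56.5 ppm (scramble 171, 218 and 176; log2 difference 2.33 ± 0.24 (SE), limma adjusted p = 0.00188). In these 3 genes the scramble libraries lay between the knockdowns. Otop3 had 88.4, 92.9 and 96.9 ppm against 12.7, 11.4 and 15.3 ppm with 52.1, 47 and 57.9 ppm in scramble, and its Nmnat2 libraries agreed closely, N2_2 included (log2 difference 2.74 ± 0.19 (SE), limma adjusted p = 4.56e-04). The same held for Lpcat2, a lysophospholipid acyltransferase, with 71.7, 67.7 and 68.5 ppm against 8.96, 10.1 and 10.7 ppm (scramble 30.8, 32.8 and 20.3; log2 difference 2.69 ± 0.23 (SE), limma adjusted p = 0.001). Lmo2, a LIM-only protein of blood and endothelial cells, had 107, 90.1 and 104 ppm against 21.2, 15.6 and 19 ppm, but scramble, at 23.6, 11.4 and 15.3 ppm, was level with the Nmnat2 group (log2 difference 2.38 ± 0.27 (SE), limma adjusted p = 0.00261).

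Lrrc38, an auxiliary subunit of large-conductance potassium channels, had 17.1, 19.2 and 14.9 ppm in the Nmnat1 knockdown and 1.68, 2.52 and 2.09 ppm (scramble 2.96, 3.43 and 4.37) in the Nmnat2 knockdown, and Mzb1, an endoplasmic reticulum chaperone partner of plasma cells, 26.2, 28.9 and 31.7 ppm against 4.97, 7.66 and 3.43 ppm (scramble 12.4, 9.6 and 6.71). Trav5-1, a T-cell receptor variable segment with near-identical copies whose reads the counting could split, had 9.85, 4.06 and 7.42 ppm against 0.451, 0.486 and 0 ppm (scramble 0.836, 1.09 and 2.96). All 3 passed (limma adjusted p = 0.00351, 0.00754 and 0.0175). Without N2_2 the next highest genes included the metallothioneins Mt1 and Mt2, which bind zinc and copper. Mt1 had 85.7, 93.4 and 84.7 ppm against 18, 41.8 and 19 ppm (scramble 45.5, 31.6 and 47). Mt2 had 37, 31.9 and 24.1 ppm against 3.69, 9.34 and 6 ppm (scramble 4.46, 12.8 and 10), and both passed with N2_2 as well (limma adjusted p = 0.0175 and 0.0259). Tuba1c, an alpha tubulin, had 59.5, 64.8 and 61.3 ppm against 7.68, 26.6 and 8.36 ppm (scramble 9.9, 17.4 and 10.9). Ifitm10 had 45.6, 44.5 and 45.9 ppm against 8.53, 15.2 and 8.75 ppm (scramble 25.5, 14.9 and 19.9; limma adjusted p = 0.0239 and 0.0069). Crxos, a homeobox gene beside Crx on the opposite strand, had 62.9, 52.2 and 57.2 ppm against 11.8, 29 and 6.19 ppm (scramble 20.2, 37 and 30.7; limma adjusted p = 0.0454). Zfp600, a zinc finger gene with close copies, had 17.8, 18.9 and 21.4 ppm against 3.03, 11.7 and 3.56 ppm (scramble 22.9, 31.8 and 27.8), and Meig1 had 8.78, 5.84 and 6.84 ppm against 0.382, 10 and 0.7 ppm (scramble 2.63, 2.69 and 5.54). Scramble was above both knockdowns for Zfp600. The pair passed only without N2_2 (limma adjusted p = 1.10e-04 and 0.00347, against 0.0605 and 0.33).

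Among the lowest genes outside the amacrine list, Slc1a6, a glutamate transporter, had 3.75, 6.14 and 6.35 ppm in the Nmnat1 knockdown, 88.9, 18.6 and 86.1 ppm in N2_1, N2_2 and N2_3 and 41.4, 44.3 and 39.5 ppm in scramble (log2 difference -3.09 ± 0.51 (SE), limma adjusted p = 0.0144). N2_2 lay below scramble and N2_1 and N2_3 above it. Runx1t1, a transcriptional corepressor, had 5.29, 6.83 and 3.4 ppm against 93.7, 19.8 and 84.9 ppm (scramble 6.85, 13.2 and 13; log2 difference -3.2 ± 0.54 (SE), limma adjusted p = 0.0166). Cxcl14, a chemokine, had 6.13, 4.12 and 4.96 ppm against 53, 28.5 and 52.4 ppm (scramble 18.2, 15.4 and 18.7; log2 difference -2.87 ± 0.29 (SE), limma adjusted p = 0.00175). Cd200, a surface glycoprotein that restrains myeloid cells, had 7.63, 10.2 and 10.1 ppm against 76, 86.3 and 79.9 ppm, with 20.7, 36 and 23.8 ppm in scramble (log2 difference -3.0 ± 0.25 (SE), limma adjusted p = 8.94e-04). In Cd200 N2_2 stood highest of the Nmnat2 libraries, as it did in the histone gene Hist1h4h at 2.89, 4.04 and 3.09 ppm against 15.1, 29.9 and 20.9 ppm (scramble 7.98, 6.03 and 15.8). Smim18, a small membrane protein, had 5.65, 8.94 and 6.44 ppm against 49.9, 43 and 54.3 ppm (scramble 28, 15.5 and 25.4). Pcp4l1, a relative of a calmodulin regulator, had 1.04, 1.57 and 0.741 ppm against 11.3, 8.98 and 13.3 ppm (scramble 7.58, 1.64 and 3.5; limma adjusted p = 0.00188 and 0.0199).

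Without N2_2 the lowest genes also held a pair of axon guidance molecules, the receptor Epha4 and the ligand Efnb2. Epha4 had 1.62, 1.96 and 1.64 ppm in the Nmnat1 knockdown against 15.3, 4.04 and 17.2 ppm (scramble 4.74, 6.55 and 8.66). Efnb2 had 6.54, 6.49 and 9.44 ppm against 43.3, 5.17 and 53.7 ppm (scramble 12.1, 15 and 15.1), where N2_2 was the lowest of all libraries. Neither passed with N2_2 (limma adjusted p = 0.0604 and 0.284, against 5.41e-04 and 7.39e-05). Cdh22, a cadherin, had 2.11, 1.85 and 1.72 ppm against 16.8, 4.14 and 16.3 ppm (scramble 6.42, 9.4 and 6.65), and Pkdcc, a secreted kinase, 2.85, 9.18 and 7.53 ppm against 44.6, 7.53 and 44.9 ppm (scramble 12, 18.1 and 16.4). Cldn5, a tight junction protein of endothelium, had 0.21, 1.75 and 4.08 ppm against 18.8, 2.81 and 20.2 ppm (scramble 11.8, 7.35 and 9.42). These 3 likewise passed only without N2_2 (limma adjusted p = 3.50e-04, 0.00111 and 0.00402). Krt73, a keratin, passed with N2_2 too, at 1.21, 0.537 and 0.939 ppm against 13.4, 3.85 and 10.5 ppm (scramble 7.08, 9.18 and 5.66; limma adjusted p = 0.0264).

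All 75 cytosolic ribosomal protein genes had a negative log2 difference. By mean ppm Rpl5 was level, at 34.4 ppm in the Nmnat1 and 34.2 ppm in the Nmnat2 knockdown. Of 75 genes, all tested, 21 were lower and 0 higher with N2_2, and 50 and 0 without it. The median difference was -0.69, or -0.94 relative to all genes, and -0.53 without N2_2. In 64 of the 75 (85.3%) the knockdowns did not overlap, against 25.4% of all genes, and in 66 the scramble mean lay between them. Rpl27a, a protein of the large subunit, had 35.2, 35.4 and 37 ppm against 119.5, 188 and 126 ppm, with 84.2, 91.5 and 84.1 ppm in scramble (log2 difference -1.95 ± 0.20 (SE), limma adjusted p = 0.00175). The 3 groups were ordered without overlap, and N2_2 was the highest library.

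Many ribosomal protein genes have processed pseudogenes of near-identical sequence, between which the authors' counting could split reads. Rps2 had 110.5, 92.5 and 90.7 ppm against 311, 392 and 295 ppm (scramble 213, 228 and 195), 3.4-fold (log2 difference -1.75 ± 0.17 (SE), limma adjusted p = 0.00149). Its pseudogene Rps2-ps13 had 195, 158 and 156 ppm in the Nmnat1 knockdown, 287, 285 and 296 ppm in scramble, and 3.11, 251 and 1.9 ppm in N2_1, N2_2 and N2_3, so that N2_1 and N2_3 were far below all other libraries. With Rps2 and its 8 named pseudogenes added together the level was 341 to 402 ppm in the Nmnat1 and 577 to 944 ppm in the Nmnat2 knockdown, 1.95-fold, with 649 to 703 ppm in scramble (log2 difference -0.93, limma adjusted p = 0.0389). Adding the 227 named pseudogenes to their 56 parent genes gave 23 lower ribosomal genes with N2_2 and 53 without it, and again 64 of 75 without overlap. The part of such copies in the size of the differences was not tested beyond these sums. The count of lower ribosomal genes was 3 to 15 when a library other than N2_2 was left out, 6 with N2_1 and N2_3 averaged and 29 with both changes. The summed level was 33124, 31251 and 30602 ppm in the Nmnat1 knockdown, 41098, 36115 and 35112 ppm in scramble and 44961, 68836 and 45676 ppm in the Nmnat2 libraries, the highest in N2_2, where the mitochondrial share was also highest. The part of N2_2's RNA composition in the result was not tested.

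Most glycolytic genes that passed were higher in the Nmnat1 knockdown. Of 27 genes, all tested, 6 were higher (Ldha, Eno2, Gpi1, Tpi1, Aldoa and Pgam1) and 1 lower (Gapdh), and without N2_2 10 were higher and 2 lower. The median difference was 0.62 with N2_2 and 0.23 without it (0.37 and 0.05 relative to all genes). Ldha (chr7:46841475-46855627, plus strand), the lactate dehydrogenase that turns pyruvate into lactate while regenerating NAD, had 10383, 10399 and 10933 ppm against 4415, 5215 and 4291 ppm, with 6489, 6886 and 7191 ppm in scramble (log2 difference 1.19 ± 0.13 (SE), limma adjusted p = 0.00209; 1.28 without N2_2, limma adjusted p = 2.36e-06). The 3 groups were ordered without overlap, and N2_2 stood with its group. Eno2, the neuronal enolase, had 103, 113 and 111 ppm against 33, 39.2 and 24.9 ppm (scramble 79.5, 96.7 and 81.6; log2 difference 1.75 ± 0.20 (SE), limma adjusted p = 0.0031). Gpi1, the phosphoglucose isomerase, had 209.5, 231 and 229 ppm against 113, 101 and 108 ppm (scramble 185, 228 and 201; log2 difference 1.05 ± 0.15 (SE), limma adjusted p = 0.00776). Tpi1, the triose phosphate isomerase, had 531, 493 and 509 ppm against 289, 295 and 281 ppm (scramble 441, 513 and 451; log2 difference 0.82 ± 0.13 (SE), limma adjusted p = 0.014). Aldoa had 1110.1, 1218 and 1179.6 ppm against 453, 778 and 459 ppm (log2 difference 1.1 ± 0.20 (SE), limma adjusted p = 0.0248), and here, as in Gpi1 and Tpi1, scramble overlapped the Nmnat1 group, at 1067, 1209 and 1231 ppm for Aldoa. Gapdh, the dehydrogenase that uses NAD in glycolysis, went the other way, at 691, 663 and 699 ppm against 1036, 1243 and 1076 ppm (scramble 1037, 968 and 1030.0; log2 difference -0.7 ± 0.13 (SE), limma adjusted p = 0.0248), and it too has many pseudogenes. The count of higher genes was 2 with median-of-ratios scaling and 2 to 5 when a library other than N2_2 was left out.

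The respiratory chain list depended on N2_2. Without it 26 of 71 nuclear genes were higher and 4 lower, against 6.28% and 6.78% of all genes, and with it 0 were higher and 1 lower (Cox5a), near the background of 1.34% and 0.715%. The median difference was -0.04 with N2_2 and 0.24 without it (-0.29 and 0.06 relative to all genes). Cox5a, a subunit of cytochrome c oxidase, had 258, 247 and 239.7 ppm in the Nmnat1 knockdown, 529.6, 852 and 562 ppm in the Nmnat2 knockdown and 611, 655 and 589.5 ppm in scramble (log2 difference -1.35 ± 0.19 (SE), limma adjusted p = 0.00645; -1.14 without N2_2, limma adjusted p = 1.15e-05). Ndufa4, a small protein of the respiratory chain, had 1520.4, 1262 and 1257 ppm against 519.5, 1829.8 and 503 ppm (scramble 1274, 1093 and 1059): N2_1 and N2_3 were the lowest and N2_2 the highest of all libraries (log2 difference 0.78 ± 0.41 (SE), limma adjusted p = 0.37; 1.39 without N2_2, limma adjusted p = 2.19e-05). The 13 mitochondrially encoded mRNAs gave 0 calls in either direction with N2_2, and 0 higher and 2 lower without it. All 13 differences were nevertheless negative, and in 8 (61.5%) the knockdowns did not overlap, against 25.4% of all genes. Their median was -0.68 with N2_2 and -0.26 without it, or -0.92 and -0.45 relative to all genes. They summed to 25200, 22926 and 23211 ppm in the Nmnat1 knockdown and 28494, 65121 and 28427 ppm in the Nmnat2 libraries. Scramble had 46739, 27934 and 27434 ppm.

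Of 23 tested genes of cholesterol synthesis 3 were higher and 0 lower, and 7 and 0 without N2_2. The median was 0.74 with N2_2 and 0.49 without it, or 0.49 and 0.31 relative to all genes. Mvk, the mevalonate kinase, had 81.2, 95.7 and 114 ppm against 45.4, 45.4 and 46.5 ppm (scramble 87.9, 111 and 84; log2 difference 1.05 ± 0.19 (SE), limma adjusted p = 0.0232). Fdps, the farnesyl diphosphate synthase, had 156, 144 and 132 ppm against 87.7, 83.9 and 85.6 ppm (scramble 138, 120.0 and 114). Msmo1, a sterol oxidase, had 58.4, 63.2 and 63.6 ppm against 37.5, 29.9 and 34.6 ppm (scramble 48.9, 40.1 and 44.5; limma adjusted p = 0.0439 and 0.0459). N2_2 stood with its group in all 3, but 0 passed with median-of-ratios scaling and 0 or 1 when a library other than N2_2 was left out. Of 28 synaptic vesicle genes 4 were higher (Syp, Snap25, Slc17a7 and Stx3) and 1 lower (Syt4), and 7 and 3 without N2_2. Over all genes 1.34% were higher and 0.715% lower, and 6.28% and 6.78% without N2_2. The synaptic list had 19 positive and 9 negative differences. Its median was 0.33 with N2_2 and 0.18 without it, or 0.08 and 0.002 relative to all genes. Syp, synaptophysin, had 999, 1067 and 996 ppm against 365, 300.1 and 373 ppm and 776, 792 and 807 ppm in scramble (log2 difference 1.56 ± 0.14 (SE), limma adjusted p = 0.0011). Slc17a7, the vesicular glutamate transporter of photoreceptors and bipolar cells, had 161, 187 and 176 ppm against 61, 84 and 59.7 ppm (log2 difference 1.36 ± 0.18 (SE), limma adjusted p = 0.00589). Stx3, the syntaxin of ribbon synapses, had 167, 180.5 and 159.7 ppm against 88, 79.2 and 89.7 ppm (log2 difference 0.97 ± 0.15 (SE), limma adjusted p = 0.00942). For Slc17a7 and Stx3 scramble was level with the Nmnat1 group at 166, 173 and 189 and 179.9, 173 and 186 ppm.

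Of 26 tested antioxidant genes 3 were higher (Prdx3, Cat and Gsr) and 0 lower, and 6 and 3 without N2_2. Over all genes 1.34% were higher and 0.715% lower, and 6.28% and 6.78% without N2_2. The antioxidant list had 16 positive and 10 negative differences. Its median was 0.12 with N2_2 and -0.03 without it, or -0.13 and -0.22 relative to all genes. Prdx3, the mitochondrial peroxiredoxin, had 67.7, 78.1 and 82.2 ppm in the Nmnat1 knockdown against 23.6, 28.2 and 18.4 ppm (scramble 83.1, 89.2 and 58; log2 difference 1.67 ± 0.23 (SE), limma adjusted p = 0.00668). Cat, catalase, had 32.1, 33.2 and 26.3 ppm against 12.2, 7.84 and 11.8 ppm (scramble 33.2, 37.9 and 38.5). Gsr, glutathione reductase, had 30.4, 30.1 and 29.7 ppm against 10.8, 3.05 and 11 ppm (scramble 25.1, 33.4 and 20.8; limma adjusted p = 0.014 and 0.0406). In all 3 the scramble libraries overlapped the Nmnat1 group, and the Nmnat2 libraries were the low ones. The count was 0 to 2 when a library other than N2_2 was left out. Of 14 tested genes of MHC class I presentation 0 were higher and 2 lower, and 1 and 4 without N2_2. The list had no common direction, with 8 positive and 6 negative differences and a median of 0.12 (-0.13 relative to all genes). Tapbp was the higher one without N2_2, at 25.4, 23.7 and 18.5 ppm against 14.6, 12.9 and 11.7 ppm. Scramble had 16.4, 17.8 and 17.1 ppm of Tapbp (limma adjusted p = 0.0399 without N2_2, 0.147 with it). The lower count was 0 without N1_1 and 1 without N1_3. H2-D1, a class I heavy chain with close paralogues, had 55.1, 71 and 72 ppm against 203, 136 and 199 ppm (log2 difference -1.41 ± 0.20 (SE), limma adjusted p = 0.00778), and its partner B2m 39.7, 53.5 and 49.4 ppm against 126, 182 and 107 ppm (log2 difference -1.49 ± 0.22 (SE), limma adjusted p = 0.00832). Here the Nmnat1 libraries were the low ones, and scramble had 186, 174 and 208 ppm of H2-D1 and 133, 138 and 122 ppm of B2m.

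Enzymes of NAD metabolism gave 1 call in each of the lists below, against 1.34% higher and 0.715% lower of all genes, which is too few to read a result about either list. Of 19 tested genes of NAD synthesis and salvage 0 were higher and 1 lower, Nmnat1 itself, and 2 and 2 without N2_2. Nadk2, the mitochondrial NAD kinase, had 88.6, 74.6 and 85.6 ppm in the Nmnat1 knockdown against 48.4, 18.6 and 49.1 ppm (scramble 79.8, 64.4 and 67.8) and passed only without N2_2 (log2 difference 1.2 ± 0.33 (SE), limma adjusted p = 0.106; 0.75 without N2_2, limma adjusted p = 0.00391). Slc12a8, proposed as a carrier of nicotinamide mononucleotide, had 16.6, 21 and 21.3 ppm against 9.86, 16.9 and 9.51 ppm (scramble 23.2, 24.4 and 25.5; log2 difference 0.7 ± 0.27 (SE), limma adjusted p = 0.232; 0.94 without N2_2, limma adjusted p = 0.00791). Of 23 tested NAD-consuming enzymes 1 was higher and 0 lower, and 3 and 1 without N2_2. Sirt2, a cytosolic deacetylase, had 120.2, 134 and 125 ppm against 74.2, 66.4 and 73 ppm, with 112, 82.8 and 106 ppm in scramble (log2 difference 0.82 ± 0.17 (SE), limma adjusted p = 0.0418). The Nmnat2 libraries, N2_2 included, lay below the Nmnat1 group without overlap, but the call was lost when any library other than N2_2 or C2 was left out.

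**Figure D5:**
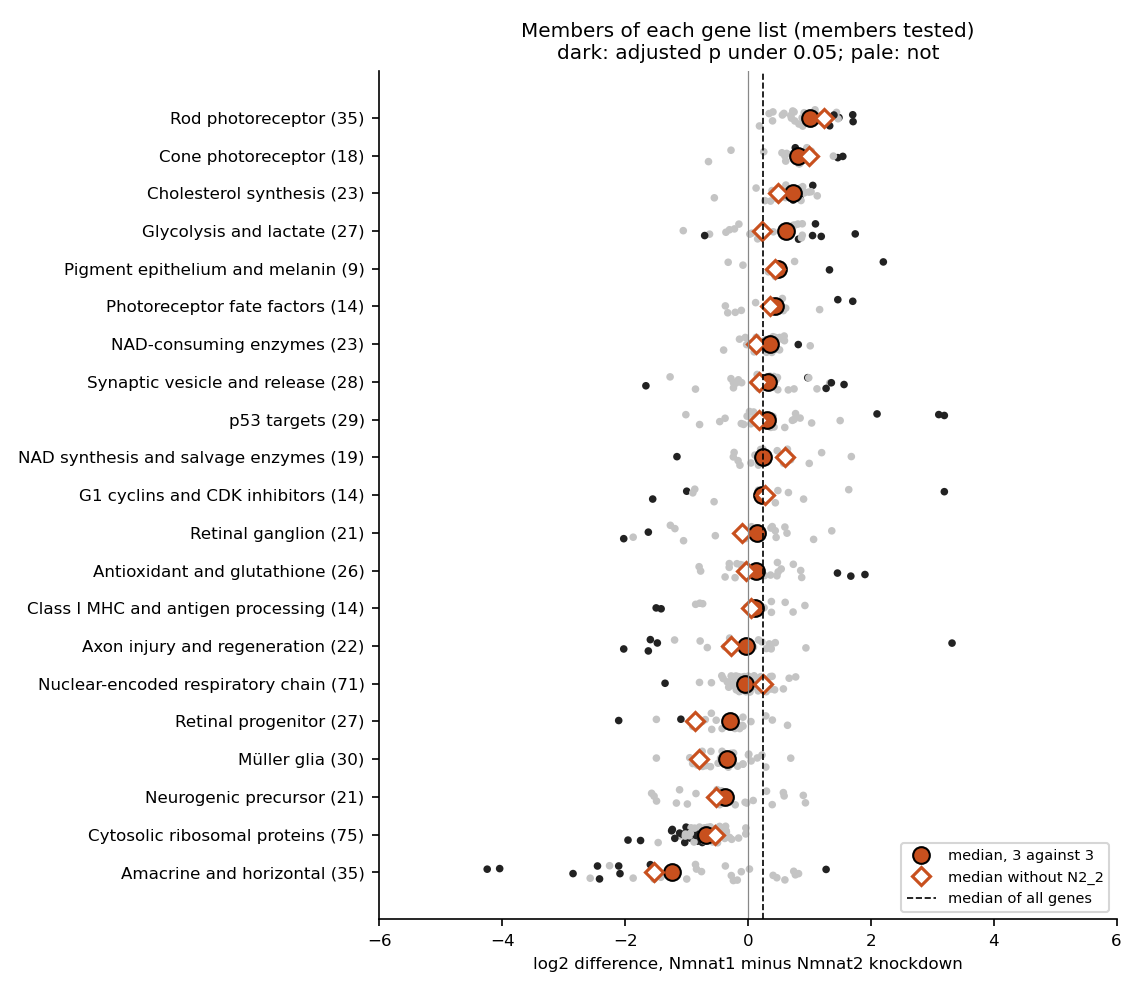
Log2 difference (Nmnat1 minus Nmnat2 knockdown) of every tested member of 21 gene lists, dark where the adjusted p was under 0.05, with the median of each list with N2_2 (filled circle) and without it (open diamond). The rod list has a median of 1.01, the ribosomal list -0.69 and the amacrine and horizontal list -1.23, against the dashed line at 0.25 for all genes; in the progenitor and Müller lists the median without N2_2 lies lower, at -0.87 and -0.80.

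Markers of cells outside the neural retina were looked for because a sort can carry them. The pigment genes Tyrp1 and Dct were higher in the Nmnat1 knockdown, 2 of 9 tested genes of pigment epithelium and melanin, with 0 lower with N2_2 and 1 (Rlbp1) without it, and 0 to 2 were higher when a library other than N2_2 was left out. Tyrp1, an enzyme of melanin synthesis, had 23.9, 21.8 and 28.1 ppm against 5.8, 3.78 and 4.2 ppm and 9.15, 5.48 and 8.91 ppm in scramble (log2 difference 2.2 ± 0.30 (SE), limma adjusted p = 0.00619). Dct, an enzyme of the same pathway, had 43.4, 44.3 and 47.9 ppm against 16.6, 23.7 and 13.3 ppm (scramble 32.7, 46 and 38.3; log2 difference 1.33 ± 0.25 (SE), limma adjusted p = 0.0248). The summed level of this list did not follow the pair, at 208, 222 and 215 ppm in the Nmnat1 knockdown, 231, 97 and 218 ppm in the Nmnat2 libraries and 324, 331 and 319.8 ppm in scramble. Rpe65, the retinoid isomerase that defines pigment epithelium, was at most 1.76 ppm in any knockdown library, at 0.45, 0.962 and 1.76 ppm and 0.121, 0.139 and 0.922 ppm (scramble 3.51, 1.75 and 1.35). Microglia genes, 15 of 20 tested with 0 calls with N2_2 and 3 higher without it, summed to 48, 63 and 70.2 ppm in the Nmnat1 and 30.1, 65 and 24 ppm in the Nmnat2 libraries. Vascular genes, 13 of 15 tested with 0 calls and 2 lower without N2_2, summed to 48, 53 and 64 and 84, 35 and 97 ppm, and lens genes, 7 of 17 tested with 0 calls either way, to 35, 45 and 39.8 and 26, 37 and 22 ppm. The part of such cells in the results was not tested.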

How the data were processed

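RNA was sequenced from sorted EGFP-positive cells of electroporated mouse retinal explants. The signal values used here are length-scaled expression per gene, deposited by the authors as TPM, but their columns sum to between 14.4 and 29.6 times 1000000. Each column was therefore divided by its sum and multiplied by 1000000 (ppm). Per the submitters' processing notes Salmon 0.11.3, sleuth 0.30.0 and GRCm38.p6 were used, with no role or order given, and 1 incomplete line was dropped from 34385 complete ones. Column names gave the group of a library but not its sample. The library kit, per the labels' protocols, does not mark strand.

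Genes at 1 ppm or more in at least 3 of the 9 knockdown and scramble libraries were tested on log2(ppm + 1), which understates the change of low genes. limma 3.58.1 (R 4.3.3) fitted the 9 libraries together with a mean-variance trend, and Benjamini-Hochberg adjusted p-values under 0.05 were called. The fit was also run on simulated data, drawn as independent libraries with spreads estimated without N2_2. That setting lacks an outlying library like N2_2 and a close pair like N2_1 and N2_3, so nothing is concluded from it here. Gene coordinates are from GENCODE M21 on GRCm38, and promoters from RefSeq on GRCm38.p6. Genes named were the NMNAT genes, the 12 highest and 12 lowest called genes at 5 ppm or more with no overlap, 8 and 8 likewise without N2_2, and up to 4 members of a list by p in each fit, leaving out clones, predicted genes and pseudogenes; other members are named only as called. A few genes that the rule names are not reported here. Gene lists and members were chosen with earlier results of these data known. Alternatives covered scaling, filter, pseudocount, libraries, weights and a replicate block.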

Additional observations from a re-analysis of the deposited data

How the results depend on the processing

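Against 299 higher and 159 lower genes, pseudocounts of 0.5 and 5 ppm, no filter, a filter at 5 ppm and leaving out C1 or C2 stayed within 1.5 times. Median-of-ratios scaling gave 387 lower, quantile normalization 334 lower, a fit of the 6 knockdown libraries 70 and 38, no mean-variance trend 102 and 60, and array weights 3570 and 2502. Leaving out 1 library gave 48 (without N1_3) to 1396 (without N2_2) higher and 32 to 1508 lower genes, with 151 and 90 without C3, 65 and 41 without N1_1, 49 and 40 without N1_2, 125 and 62 without N2_1 and 116 and 59 without N2_3. With N2_1 and N2_3 averaged into 1 sample the counts were 99 and 55. Settings without N2_2 that changed a second choice gave 973 and 2133 (median-of-ratios), 1335 and 1449 (quantile), 480 and 524 (N2_1 and N2_3 averaged) and 1415 and 1491 (ribosomal genes summed with pseudogenes); the combined settings and both averaged and summed ones were added after seeing the data. The cause of these moves was not tested.

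Replicate numbers were not linked by any label, and deviations of libraries with the same number correlated at -0.0383 to 0.0299. The fit with a replicate block gave 112 higher and 71 lower genes and left the Nmnat1 difference at -1.16 (limma adjusted p = 0.118). The Nmnat1 difference also missed the threshold at a pseudocount of 5 ppm (-0.89, limma adjusted p = 0.0597), with no filter (-1.16, 0.063), in the 6 knockdown libraries (-1.16, 0.128), with no trend (-1.16, 0.0745) and with N2_1 and N2_3 averaged (-1.06, 0.175), and ran from -1.34 to -1.06 when 1 library was left out.

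Of the 24 genes with the highest and lowest differences, 15 to 24 kept their call when 1 library was left out and 24 kept their direction. Small differences that changed sign were those of Pdia3 (0.26; -0.30 with array weights, -0.33 to 0.56 when 1 library was left out, and, without N2_2, -0.47, -0.27, -0.33 and -0.32 with median-of-ratios, quantile, averaging and summing), and, with N2_1 and N2_3 averaged, Rorb (-0.11; 0.12), Dkk3 (-0.32; 0.21), Parp8 (-0.14; 0.14) and Rlbp1 (-0.08; 0.18). When 1 library was left out these ran from -0.57 to 0.13 for Rorb, -1.38 to 0.22 for Dkk3, -0.70 to 0.19 for Parp8 and -0.61 to 0.21 for Rlbp1. Depth limits short transcripts near 1 ppm. Nmnat2 and Nmnat3, with 5781 and 5004 exon bases, stood at low levels and varied between libraries of the same group.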

Other observations

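A pair of pseudogenes was chosen after their values were seen. RP23-186B18.4 (chr2:35340409-35340963, GRCm38) had 4.68, 0 and 2.64 ppm in the Nmnat1 knockdown, 313, 101 and 303 ppm in N2_1, N2_2 and N2_3, and 107, 116 and 93.9 ppm in scramble. Its log2 difference of -6.28 was larger than that of any gene named in the text, the next being 4.52 for Mmp2. Rps2-ps10 had 86.2, 81.3 and 88.6 ppm in the Nmnat1 knockdown, 285, 289 and 274 ppm in the Nmnat2 knockdown and 148, 185 and 148 ppm in scramble, the same order as its parent gene Rps2.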
